A study of Mus musculus with 4 samples.

Results

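The numbered Gpr genes encode receptors, and receptor-like membrane proteins, that were named in series before a ligand was known, and 73 of them were measured in brain CD11b-positive cells that had repopulated the brain after PLX5622. They are every protein-coding row of the count table whose Ensembl identifier has, in GENCODE M21 on GRCm38, a symbol made of Gpr, a number and any trailing letters or digits. The 73 genes stand among 21974 protein-coding rows and 55471 rows in all, and the rule uses symbols and biotypes alone. A pair of rows with such a symbol is not protein coding and was left out: Gpr141b, a lincRNA with 2, 1, 2 and 2 counts in libraries 1 to 4, and Gpr31a, a processed pseudogene with 0 counts.

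The series holds 4 libraries of 1 group. PLX5622, which blocks the receptor kinase CSF1R that microglia need for survival, was given to mice for 7 days and withheld for the next 10 days, 17 days in all, at an age of 10 to 13 weeks. Cells carrying CD11b, an integrin of microglia and other myeloid cells, were then taken from the brain with magnetic beads, and 300 ng of total RNA went into each poly(A) library. Not given in the sources used here are strain, genotype, sex and the number of animals behind the libraries. No other group was analysed, so levels and their spread are described and no drug effect is estimated. Spread and p-values refer to these samples and may be technical.

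Most G protein-coupled receptors pass a signal from a ligand outside the cell to a heterotrimeric G protein inside it, and are switched off by receptor kinases and arrestins. In brain macrophages, receptors of this kind sense lipids, nucleotides, chemokines and acid, and guide surveillance and migration. Several proteins with a Gpr number sit in the Golgi or the lysosome instead and are not known to act as cell-surface receptors. Levels below are counts per 1000000 (CPM) on library sizes scaled by TMM, edgeR's weighted trimmed mean of log ratios, given for libraries 1 to 4 in that order. Levels of different genes are compared only as CPM per kilobase of exonic length.

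The 4 libraries held 23036202 to 24487418 counts, so a floor of 3 counts corresponds to 0.119 to 0.132 CPM in a library. Counting error alone is covered by that floor. Checked against markers, 12 of 12 homeostatic microglia genes were detected, meaning at 1 CPM or more in every library, with list medians of 2821, 2571, 2784 and 2361 CPM and with Csf1r at 9504 ± 1015 CPM (SD, n = 4). Markers of other cells were present too. Their list medians were 65.3, 33.0, 25.0 and 25.6 CPM for border-associated macrophages, 82.8, 85.7, 20.2 and 64.0 CPM for endothelial cells, 70.2, 59.8, 7.79 and 37.5 CPM for pericytes and smooth muscle, and 81.5, 70.4, 14.1 and 97.7 CPM for ependyma and choroid plexus. Astrocyte markers had medians of 12.0 to 23.2 CPM, oligodendrocyte markers 30.6 to 64.0 CPM, and erythroid markers 38.2, 18.7, 3.87 and 7.22 CPM. Medians were also measured for monocytes (4.41 to 7.71 CPM), neutrophils (2.14 to 10.97 CPM), oligodendrocyte precursors (2.51 to 4.85 CPM), neurons (0.636 to 1.30 CPM), T and NK cells (0.396 to 0.635 CPM) and B cells (0.308 to 0.530 CPM). Library 3 was the lowest for all 9 pericyte, all 9 choroid plexus and all 5 erythroid genes, and for 9 of 10 endothelial genes. Summed over a list, endothelial markers had 942, 962, 226 and 830.5 CPM, pericyte and smooth muscle markers 687, 645, 101.3 and 445 CPM, and border-associated macrophage markers 1615, 1153, 1168 and 989 CPM. Ependyma and choroid plexus markers had far larger sums of 16088, 16072, 3347 and 22430 CPM. Most of this came from Ttr (9625 ± 5306 CPM) and Enpp2 (4204 ± 2363 CPM). The homeostatic microglia markers summed to 47762, 42891, 48280 and 39732 CPM. No marker of any list was at 0 in every library. In such bulk RNA, fewer cells of a type and less RNA per cell cannot be told apart.

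Of the 73 genes, 26 (35.6%) were detected, against 53.6% of all protein-coding rows, and 11 (15.1%) had 0 counts in every library, against 22.7%. Another 5 reached 1 CPM in at least 1 library but not in all, and 31 had counts below 1 CPM throughout. Gpr34 dominated the set. Divided by length, its transcripts made up 74.8%, 65.5%, 66.2% and 64.7% of the summed level of all 73 genes, a mean of 67.8% ± 4.68 (SD, n = 4), and ranked 42nd among all protein-coding genes. The 5 highest genes together held 86.1% ± 2.19. The other 21 detected genes ran from 16.9 down to 0.308 CPM per kilobase, with a median of 5.26. Over all 26 detected members the median was 6.25, against 6.68 for all 11776 detected protein-coding genes.

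**Figure D1:**
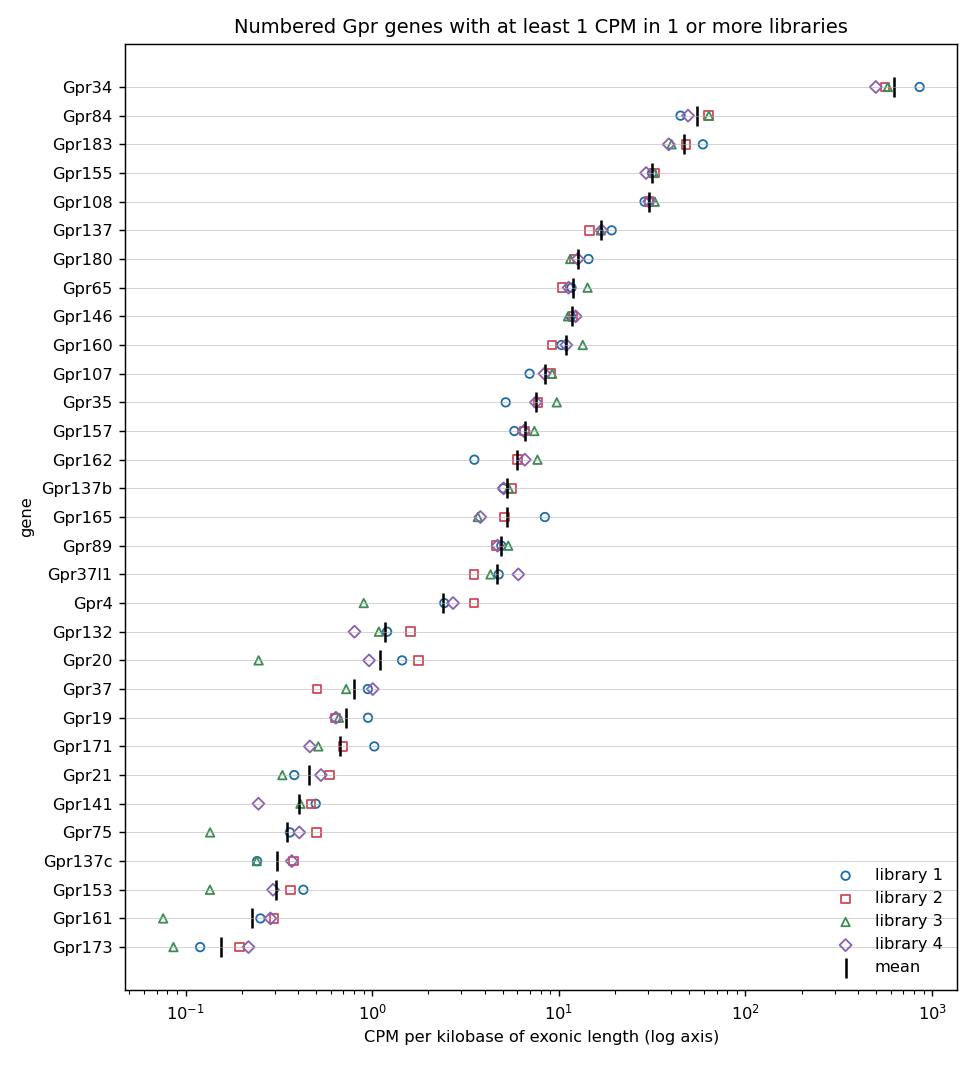
CPM per kilobase of exonic length (horizontal log axis) for the 31 numbered Gpr genes with at least 1 CPM in 1 or more libraries, ordered by mean. Open symbols are the 4 libraries and black bars the means. Gpr34 stands apart at 624 CPM per kilobase, Gpr84 and Gpr183 follow at 55.3 and 46.6, and library 3 is far to the left for Gpr4 and Gpr20.

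Ordered by level per kilobase, Gpr34 (624 ± 159) was followed by Gpr84 (55.3 ± 9.69), Gpr183 (46.6 ± 9.33), Gpr155 (31.5 ± 1.45), Gpr108 (30.6 ± 1.58), Gpr137 (16.9 ± 1.88) and Gpr180 (12.7 ± 1.27). Neighbours in this order were told apart by whether their library values overlapped. Of the 25 neighbouring pairs among detected genes, 4 did not overlap: Gpr34 above Gpr84, Gpr183 above Gpr155, Gpr108 above Gpr137 and Gpr137 above Gpr180. The other 21 pairs overlapped, Gpr84 and Gpr183 among them. In a comparison within libraries, added after the values were seen, 1 of these 21, Gpr160 above Gpr107, kept its order in all 4. Measured per kilobase of the longest coding transcript in place of all exons, the first 6 kept their places, but only 2 of the 4 pairs stayed apart, Gpr34 above Gpr84 and Gpr137 above Gpr180. Gpr183 then reached down to 41.2 where Gpr155 reached up to 42.9, and Gpr108 down to 34.3 where Gpr137 reached up to 35.1. By this measure Gpr160 stood at place 7, Gpr146 at 8, Gpr107 at 9, Gpr180 at 10 and Gpr65 at 11, against 10, 9, 11, 7 and 8 by all exons.

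Receptors for lipids and other metabolites held the top 3 places, and 5 of 10 were detected. Gpr34, a receptor for lysophosphatidylserine that is typical of microglia, had 1792, 1171, 1211 and 1043 CPM (1304 ± 333, SD, n = 4). Library 1 was the highest and the other 3 lay close together. Gpr34 (ENSMUSG00000040229) spans chrX:13632089-13640858 on the plus strand of GRCm38. The purinergic receptor P2ry12, another gene typical of microglia, had 4262, 2816, 3116 and 2726 CPM. Per kilobase, Gpr34 stood at 0.512, 0.507, 0.473 and 0.466 times P2ry12 in libraries 1 to 4.

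Gpr183, also called EBI2, is a receptor for dihydroxylated oxysterols that steers the migration of immune cells. It had 171, 139, 116 and 112 CPM (134 ± 26.9), again highest in library 1. Gpr84, a receptor for medium-chain fatty acids that inflammation raises in macrophages, had 77.4, 109.5, 109.8 and 85.0 CPM (95.4 ± 16.7). Here library 1 was the lowest. The gene shares 681 bases of exon, 39.5% of its length, with the antisense gene Gm49482, which had 0 to 5 counts per library. The library kit marks strand, but whether counting used it is not stated, so reads of such a shared stretch cannot be told apart. Gpr35, for which the tryptophan product kynurenic acid is a proposed ligand, had 25.1, 37.4, 47.2 and 36.5 CPM (36.6 ± 9.03), lowest in library 1 and highest in library 3. Gpr132, a receptor for oxidised fatty acids, had 3.26, 4.36, 2.95 and 2.18 CPM. The remaining members of the group had at most 19 counts in a library. Gpr18 had 18, 15, 19 and 8 counts, and Gpr174, a lysophosphatidylserine receptor of lymphocytes, had 5, 3, 4 and 6 counts. Gpr55, a receptor for lysophosphatidylinositol, had 0 to 2 counts, Gpr31b had 1 count in all, and Gpr119, a receptor for fatty acid amides in gut and pancreatic islets, had 0. Only 7.66% of the transcript sequence of Gpr31b was unique, so its level is uncertain.

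The upstream sequences of Gpr183, Gpr84 and Gpr65 are shown because Gpr84 and Gpr183 were the highest lipid receptors with such an entry and Gpr65 the highest proton-sensing receptor. Each is the 250 bases before the RefSeq start, 5′ to 3′ on the strand of the gene, from RefSeq on GRCm38.p6. The regions are chr14:121965194-121965443 on the minus strand, chr15:103310439-103310688 on the minus strand and chr12:98268385-98268634 on the plus strand. GENCODE M21 starts Gpr84 further upstream than RefSeq, with the gene at chr15:103308235-103310612. Most of the Gpr84 region, its marked match included, therefore lies inside the gene as counted here. Capitals mark matches to GGAAGT or GAGGAA, or to their reverse complements ACTTCC and TTCCTC, which are parts of the site bound by the myeloid factor PU.1 and related ETS factors.
Gpr183: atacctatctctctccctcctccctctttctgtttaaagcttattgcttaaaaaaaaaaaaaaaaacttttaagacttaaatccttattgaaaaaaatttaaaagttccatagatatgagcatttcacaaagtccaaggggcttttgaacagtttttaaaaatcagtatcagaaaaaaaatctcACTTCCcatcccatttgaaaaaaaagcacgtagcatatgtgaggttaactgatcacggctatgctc
Gpr84: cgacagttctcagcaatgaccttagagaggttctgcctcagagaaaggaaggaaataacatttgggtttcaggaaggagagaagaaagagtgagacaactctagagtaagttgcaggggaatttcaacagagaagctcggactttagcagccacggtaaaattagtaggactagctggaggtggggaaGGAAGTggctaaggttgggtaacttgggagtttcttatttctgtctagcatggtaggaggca
Gpr65: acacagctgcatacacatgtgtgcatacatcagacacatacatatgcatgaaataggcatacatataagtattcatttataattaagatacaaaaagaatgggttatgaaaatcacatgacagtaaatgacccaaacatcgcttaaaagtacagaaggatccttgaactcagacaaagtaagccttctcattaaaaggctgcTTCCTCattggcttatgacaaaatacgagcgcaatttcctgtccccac
Gpr183 and Gpr84 each held 1 match to GGAAGT and none to GAGGAA, and Gpr65 held 1 match to GAGGAA and none to GGAAGT. The motifs share the letters GGAA and can overlap. Of the 73 genes, 52 had an upstream sequence, 21 of them detected. GGAAGT was found upstream of 8 of these 21 genes (38.1%) and of 4 of the 31 that were not detected (12.9%), against 22.2% of all 27025 genes with such a sequence and 19.7% of all 32851 windows. GAGGAA was found upstream of 7 of 21 (33.3%) and 5 of 31 (16.1%), against 25.9% of genes and 23.3% of windows. A match is a description of the letters, not of a bound site.

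Among proton-sensing receptors, which respond to acid outside the cell, Gpr65 and Gpr4 were detected. Gpr65, the receptor of this kind typical of leukocytes, had 24.2, 21.5, 29.5 and 23.3 CPM (24.6 ± 3.44), a narrow range with library 3 highest. An antisense gene, Gm47566, covers 24.7% of its exons and had 1 count in all. Gpr4, typical of endothelial cells, had 7.02, 10.1, 2.60 and 7.82 CPM (6.89 ± 3.14). Library 3 was 3.20-fold below the mean of the others for Gpr4, as the endothelial markers were by 4.52-fold at their median. Flt1 had 231, 271, 55.1 and 238 CPM and Slco1a4 150.3, 139, 30.4 and 141 CPM. The part of those cells in the level of Gpr4 was not tested.

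Of 8 orphans typical of immune cells, 4 were detected. Gpr146, which is linked to plasma cholesterol through the liver, had 78.8, 80.9, 76.1 and 83.5 CPM (79.8 ± 3.15), the smallest relative spread of all detected members at 3.95%. Gpr160 had 43.7, 38.7, 56.8 and 46.4 CPM (46.4 ± 7.61), with library 3 highest. Gpr165 had 38.3, 23.3, 16.7 and 17.3 CPM (23.9 ± 10.0). Its value in library 1 was 2.00 times the mean of the others, and the libraries ranged 2.29-fold. Gpr141 had 2.98, 2.81, 2.46 and 1.47 CPM. Gpr82 had 3 to 6 counts, and Gpr25 and Gpr33 had 0 counts.

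Of the proteins of inner membranes and other atypical members, 8 of 9 were detected. Gpr155, which senses cholesterol in the lysosomal membrane in human cells, had 211, 217, 216 and 196 CPM (210.1 ± 9.70). The Golgi proteins Gpr107 and Gpr108 had 89.0, 115, 118 and 107 CPM and 82.4, 87.2, 93.5 and 87.2 CPM. Gpr89, which helps to set the pH of the Golgi, had 26.4, 24.8, 28.7 and 25.2 CPM. The Gpr137 family includes lysosomal proteins, and its levels per kilobase were 16.9 ± 1.88 for Gpr137, 5.27 ± 0.266 for Gpr137b and 0.308 ± 0.0772 for Gpr137c. Gpr137 had 65.2, 49.5, 57.0 and 57.5 CPM, Gpr137b had 25.3, 28.1, 27.1 and 25.4 CPM, and Gpr137c had 2.12, 3.33, 2.11 and 3.26 CPM. Only 63.7% of the transcript sequence of Gpr137b was unique, shared mostly with Gpr137b-ps, which itself had 32.4, 35.0, 40.1 and 33.0 CPM, so the level of Gpr137b is uncertain. Gpr137 shares 15.4% of its exonic bases with the opposite-strand gene Bad (29.6 ± 6.17 CPM), and Gpr89 24.8% with Pdzk1 (0 counts). Gpr180 had 27.0, 22.6, 21.6 and 23.7 CPM. Library 1 was the lowest for Gpr107 and Gpr108 and the highest for Gpr137 and Gpr180. Apart from Gpr137c, the highest library of a detected gene of this group was at most 1.32 times the lowest. Gpr143, the melanosomal protein of ocular albinism, had 0 to 2 counts.

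In the group with peptide, protein, amino acid or metal ligands, in which the glial receptors Gpr37, Gpr37l1 and Gpr17 were also placed, 3 of 10 were detected. Gpr37l1, typical of astrocytes, had 10.8, 7.95, 9.77 and 13.8 CPM (10.6 ± 2.44). Of 8 astrocyte markers, 6 were highest in library 4, as Gpr37l1 was, and 5 were lowest in library 3. Slc1a3 and Slc1a2 had 167, 125, 151 and 147 CPM and 30.4, 33.4, 47.0 and 48.6 CPM. Gpr37, typical of oligodendrocytes, had 5.75, 3.07, 4.40 and 6.11 CPM (4.83 ± 1.39), beside 382, 207, 84.0 and 237 CPM for Mbp. Of 8 oligodendrocyte markers, 5 were lowest in library 2, as Gpr37 was, and 7 were highest in library 1. Gpr37 was instead highest in library 4, where 0 of these 8 markers were highest. Library 2 was the lowest for Gpr37l1, Gpr37 and Slc1a3, while Slc1a2 was lowest in library 1 and Mbp in library 3. The part of glial RNA in both receptors was not tested. Gpr171, a receptor for a neuropeptide that lymphocytes also express, had 2.28, 1.55, 1.14 and 1.03 CPM. Gpr17, a receptor of maturing oligodendrocyte precursors, had 6, 16, 5 and 20 counts, beside 13.99, 19.4, 4.36 and 12.7 CPM for the precursor gene Cspg4 and 7.996, 8.34, 2.07 and 13.6 CPM for Pdgfra. Of 5 precursor markers, 2, the named ones, were lowest in library 3, and the other 3 in library 2. The chemerin receptor Gpr1 and the neuropeptide receptor Gpr83 had 0 to 2 counts. Gpr15, a homing receptor of T cells, the zinc receptor Gpr39, and Gpr139 and Gpr142, receptors for aromatic amino acids, had 0 counts.

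The large group of neuronal and other class A orphans was mostly below the detection limit, with 3 of 21 detected. Gpr162 was the highest at 13.5, 23.0, 29.5 and 25.2 CPM (22.8 ± 6.75), with library 1 at 0.523 times the mean of the others. Gpr19 had 2.77, 1.86, 1.94 and 1.87 CPM. Gpr21 had 1.43, 2.203, 1.23 and 1.98 CPM and lies inside Rabgap1 on the same strand (68.3 ± 2.41 CPM), so its few counts are uncertain. A further 3 reached 1 CPM in some libraries: Gpr161, a ciliary repressor of Hedgehog signalling, with 1.75, 2.07, 0.528 and 1.98 CPM, Gpr153 with 1.67, 1.42, 0.528 and 1.15 CPM, and Gpr75 with 1.06, 1.47, 0.396 and 1.19 CPM. Each of these 3 was lowest in library 3, as were 51.2% of protein-coding genes with a mean of 1 to 20 CPM. Library 3 was also the only one in which they fell below 1 CPM, which is what placed them here. Gpr176, Gpr62, Gpr135, Gpr50 and Gpr63 had at most 19 counts in a library. Gpr61, Gpr149, Gpr152, Gpr45, Gpr22, Gpr101 and Gpr26 had at most 2 counts, and Gpr151 had 0. Gpr157, a ciliary receptor of radial glia placed in no group, had 28.3, 32.2, 36.2 and 31.8 CPM (32.1 ± 3.24).

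No member of the small families was detected in every library. Of the vascular orphans, Gpr20 had 3.10, 3.80, 0.528 and 2.06 CPM (2.37 ± 1.42), with library 3 5.66-fold below the mean of the others, and Gpr182, of endothelial cells, had 19, 8, 4 and 18 counts. The pericyte and smooth muscle markers were 5.40-fold lower in library 3 at their median, with Acta2 at 170.3, 124, 16.5 and 81.7 CPM and Rgs5 at 214, 227, 38.9 and 160.3 CPM. The part of those cells in Gpr20 was not tested. In the SREB family of brain-conserved receptors, Gpr173 had 0.612, 0.993, 0.440 and 1.11 CPM, Gpr27 had 19, 17, 4 and 15 counts, and Gpr85 had 11, 3, 4 and 16 counts. Of the class C orphans, Gpr179 had 9 to 15 counts and Gpr158 1 to 4. Among the receptors that raise cAMP without a known ligand, Gpr3 had 2 to 6 counts, while Gpr6 and Gpr12 had 0. For the 11 genes with 0 counts, 3 counts over the 4 libraries would correspond to 0.0314 CPM, a limit that covers counting error alone. Among these genes, Gpr25 and Gpr39 share 41.6% and 39.9% of their exonic bases with opposite-strand genes. How reads of such stretches were counted is not stated, so their limits may be higher.

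Several receptor genes lie inside a larger gene on the opposite strand without overlapping its exons, and neighbours there differed widely in level. Gpr34 and Gpr82 both lie in Cask on the X chromosome, 20504 bases apart. Gpr34 had 43924, 27122, 27498 and 26291 counts, Gpr82 5, 3, 6 and 4 counts, and Cask, a membrane scaffold kinase, 87.6 ± 23.4 CPM. Cask too was highest in library 1, at 122, 81.6, 69.5 and 77.4 CPM. Gpr183 and Gpr18 both lie in Ubac2 on chromosome 14, 36769 bases apart, at chr14:121952551-121965195 and chr14:121911253-121915781. Per kilobase Gpr183 was 115-fold above Gpr18 (72.0 to 183 over the libraries), and Ubac2 was steady at 48.8 ± 1.37 CPM. On chromosome 3, Med12l holds Gpr171 beside the nucleotide receptors P2ry12, P2ry13 and P2ry14. Per kilobase, P2ry12 had 1269 ± 278 CPM, P2ry13 329 ± 35.9, Gpr171 0.676 ± 0.255, P2ry14 0.379 ± 0.0358 and Med12l 4.91 ± 0.465. The part of host gene reads in the lowest of these counts was not tested.

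**Figure D2:**
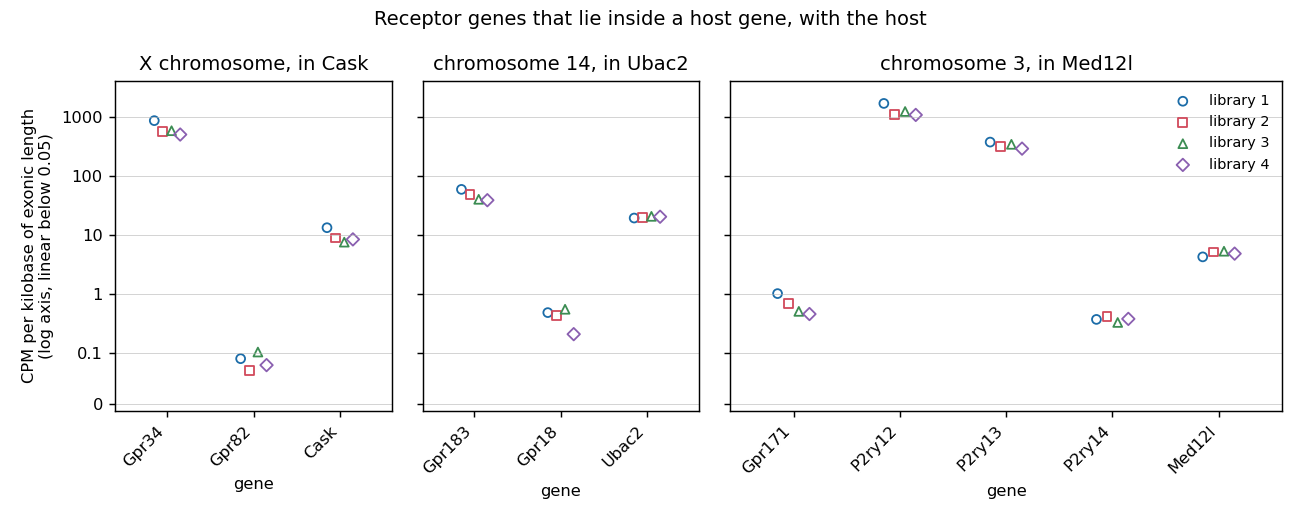
CPM per kilobase of exonic length (vertical axis, log above 0.05 and linear below) in the 4 libraries for receptor genes with counts inside Cask, Ubac2 and Med12l, with the host gene last in each panel. Gpr34 lies far above Gpr82, Gpr183 above Gpr18, and P2ry12 and P2ry13 above the other receptors of Med12l.

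The spread between libraries was tested for 31 members with enough counts. In edgeR's negative binomial goodness of fit, adjusted by Benjamini-Hochberg over 14112 genes, 0 of 31 varied more than genes of their level, against 3.28% of all genes tested. At an unadjusted p under 0.05 there was 1 member, Gpr20 (edgeR adjusted p = 0.244), against 9.57% of all genes. A quasi-likelihood test of the variance and the dispersion outliers of DESeq2 also gave 0 members, against 0% and 0.0354% of all genes. Behind Gpr20 came Gpr165 (adjusted p = 0.57 in edgeR) and Gpr4 (adjusted p = 0.756). These p-values do not show that the members were equal between libraries. The relative SD of a detected member was 20.6% at the median, against 14.1% for all detected protein-coding genes, and ran from 3.95% for Gpr146 to 45.7% for Gpr4.

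Of the 26 detected members, 7 (26.9%) were lowest in library 1, against 32% of detected protein-coding genes, and 8 (30.8%) were highest there, against 35.4%. Library 2 was the lowest for 7 (26.9%), against 19.2%, and the highest for 6 (23.1%), against 16.9%. Library 3 was the lowest for 6 (23.1%), against 27.4%, and the highest for 9 (34.6%), against 29.3%. Without library 4, library 3 was the lowest of the 3 left for 10 (38.5%), against 32.5% of protein-coding genes detected in those 3. Library 4 was the lowest for 6 (23.1%), against 21.3%, and the highest for 3 (11.5%), against 18.4%. Among members with a mean of 20 CPM or more, library 3 was the lowest for 3 of 17 (17.6%), namely Gpr180, Gpr165 and Gpr146, against 16.6% of protein-coding genes of that level. With a mean of 1 to 20 CPM it was the lowest for 7 of 13 (53.8%), against 51.2%, and with 0.3 to 1 CPM for 8 of 13 (61.5%), against 56.5%. These shares were near those of all genes of the same level. The bins were chosen after the values were seen. Higher in library 1 than in any other were Gpr34, Gpr183, Gpr165 and Gpr171 among others, while Gpr162, Gpr35, Gpr84 and Gpr107 were at their lowest there. Also highest in library 1 were 5 of 5 erythroid markers, 7 of 8 oligodendrocyte markers, 6 of 9 T and NK cell markers and all 8 markers of border-associated macrophages, with Stab1 at 948, 834, 865 and 723 CPM and Mrc1 at 291, 148, 141 and 121 CPM, and the part of those cells in these levels was not tested.

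**Figure D3:**
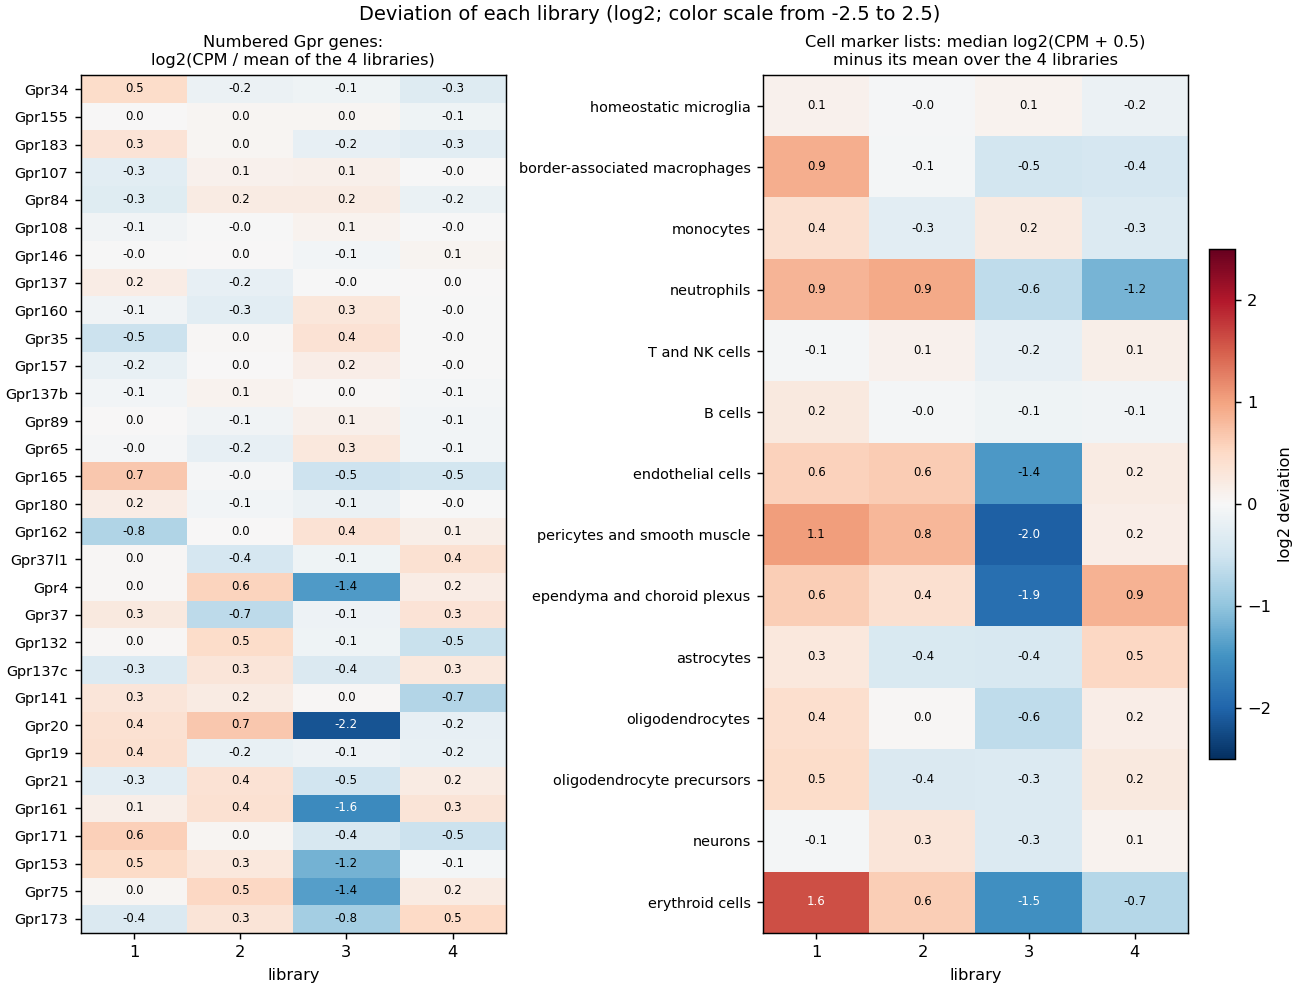
Left, log2 of the CPM in each library over the mean of the 4 libraries for the 31 numbered Gpr genes with at least 1 CPM in 1 or more libraries, ordered by mean CPM. Right, the median log2(CPM + 0.5) of each cell marker list in a library minus its mean over the 4 libraries. Blue is lower and red higher. Library 3 is the bluest column for Gpr4, Gpr20, Gpr161, Gpr153 and Gpr75 on the left. On the right it is the bluest for endothelial, pericyte, choroid plexus and erythroid markers, among others.

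RNA was present for proteins that G protein-coupled receptors in general signal through or are switched off by. Whether the members use them was not tested. The counts detected stand beside 53.6% of all protein-coding rows. Of 13 G protein alpha subunits, 11 were detected, with Gnai2, which lowers cAMP, at 770 ± 92.3 CPM, Gnas, which raises it, at 733 ± 92.2 CPM and Gna12 at 367 ± 50.9 CPM. Per kilobase the order was Gnai2 (204 ± 24.4), Gna12 (108 ± 14.9), Gna15 (94.0 ± 7.77) and Gnas (65.5 ± 8.24). The receptor kinases and arrestins were detected for 7 of 8, among them Arrb2 (589 ± 53.3 CPM), Grk2 (454 ± 42.0 CPM) and Arrb1 (193 ± 28.6 CPM). In the goodness of fit, 0 of 12 tested alpha subunits and 0 of 7 tested kinases and arrestins passed, against 3.28% of all genes. Adenylyl cyclases included Adcy7 (295 ± 81.7 CPM), Adcy6 (40.4 ± 17.5 CPM) and Adcy9 (17.5 ± 2.28 CPM), with 7 of 10 detected. Regulators of G protein signalling included Rgs2 (876 ± 224 CPM), Rgs10 (572 ± 199 CPM) and Rgs1 (510.3 ± 81.2 CPM), with 11 of 17 detected.

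Enzymes that make or break down the ligands of Gpr183 and Gpr34 ran over a wide range, with 257 ± 22.3 CPM per kilobase for Abhd12 at the upper end and 0.252 ± 0.125 for Pla1a, a phospholipase that can make lysophosphatidylserine, at the lower. Abhd12, which hydrolyses lysophosphatidylserine, had 727 ± 63.0 CPM, and Abhd16a, which makes it, had 62.1 ± 2.82 CPM. Cyp27a1, a sterol hydroxylase, had 80.3 ± 7.52 CPM. Ch25h and Cyp7b1, which make the oxysterol ligand of Gpr183, had 2.29 ± 0.390 and 1.74 ± 0.697 CPM, and Hsd3b7, which degrades it, had 3.58 ± 0.954 CPM. In this list 5 of 7 genes were detected, against 53.6% of all protein-coding rows. In the goodness of fit, 0 of 6 tested passed, against 3.28% of all genes.

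Receptors that once carried a Gpr number and now have another symbol fall outside the set. Of 29 such genes 10 were detected, against 53.6% of all protein-coding rows. Adgrg1, formerly Gpr56, an adhesion receptor of microglia, had 833 ± 58.1 CPM and, at 154 ± 10.7 CPM per kilobase, lay between Gpr34 and Gpr84. Next per kilobase came Lpar5, a lysophosphatidic acid receptor, at 20.1 ± 4.39. Adgrf5, an adhesion receptor of endothelial cells, had 123 ± 60.8 CPM and Tpra1 69.4 ± 2.30 CPM.

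In all, 6 of 57 tested genes of the signalling lists (10.5%), against 3.28% of all genes tested, varied between libraries past an adjusted p of 0.05 in edgeR's goodness of fit. They were Rgs5 (adjusted p = 1.91e-07), Rgs4 (1.81e-06), Adgrf5 (5.47e-06), Adgra2 (0.00641), Adcy6 (0.0122) and Gper1 (0.0412). All 6 were lowest in library 3, by 5.15, 7.36, 4.51, 4.51, 3.28 and 7.62-fold against the mean of the others. Also past that threshold and lowest in library 3 were 8 of 10 endothelial, 6 of 9 pericyte and smooth muscle and 9 of 9 ependyma and choroid plexus markers, with list median folds of 4.52, 5.40 and 4.95. So were 5 of 5 erythroid markers, with a list median fold of 6.44. The same held for 2 of 8 oligodendrocyte, 1 of 8 border-associated macrophage and 1 of 7 monocyte markers. Rgs5 is itself one of the pericyte markers. The part of those cells in the 6 genes was not tested. Without library 3 the count was 0, without library 2 it was 3, without library 4 it was 4 and without library 1 it was 5. The adjusted p of each of the 6 reached 0.832 or more without library 3. The quasi-likelihood test called 0 of them, with an adjusted p of 0.889 for each. It called 0 of all 14112 genes, so it could not set these genes apart from others. Without library 2, edgeR's adjusted p was 0.0752 for Adcy6, 0.126 for Adgra2 and 0.246 for Gper1. Adcy6 also lost its call without library 4 (adjusted p = 0.0536), and Gper1 without library 1 (0.078), without library 4 (0.0501) or with no filter on low counts (0.0696).

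**Figure D4:**
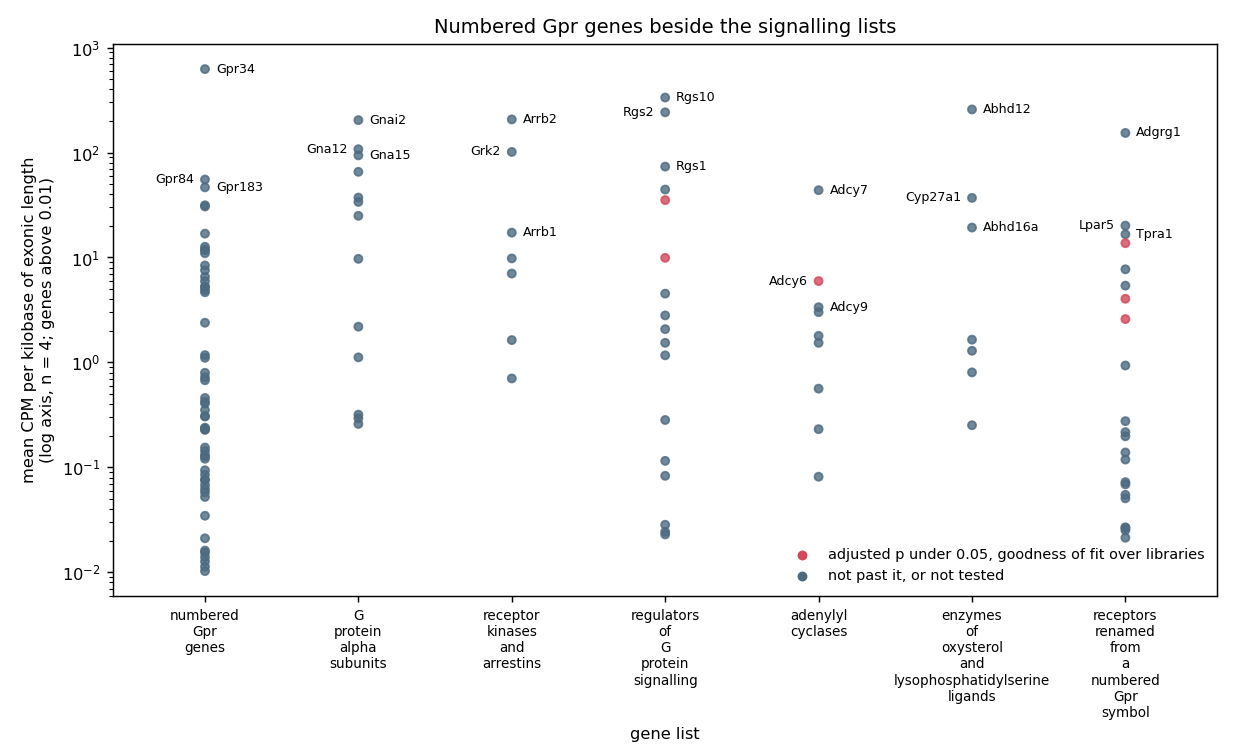
Mean CPM per kilobase of exonic length over the 4 libraries (vertical log axis) for the numbered Gpr genes and the genes of 6 signalling lists, 1 point per gene above 0.01. The 3 highest of each list are named, and red points are the 6 genes whose libraries differed past an adjusted p of 0.05. Gpr34 lies above every gene of the other lists, and no numbered Gpr gene is red.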

How the data were processed

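The authors deposited raw counts per Ensembl gene for the 4 libraries. The submitters' processing notes list featureCounts 1.6.5, STAR 2.7.2b, bcl2fastq 2.20.0.422 and the build GRCm38. Not given in the sources used here are the annotation, whether counting used strand, and how reads with several hits were treated. Of 55471 rows, 55230 were matched by identifier to GENCODE M21, and the other 241 held at most 0.00526% of a library's counts. The libraries were numbered by their labels.

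From the counts, CPM were computed with TMM factors of 0.963 to 1.03 in edgeR 4.0.16 under R 4.3.3, and divided by the length of all exons of a gene for comparisons between genes. The goodness of fit in edgeR compared each gene's deviance, from a model holding an intercept alone at the trended dispersion, with a chi-square distribution (3 degrees of freedom), over 14112 genes kept by filterByExpr. It was tested on simulated data. With 1 group, the usual quasi-likelihood test of a coefficient has nothing to compare, so the quasi-likelihood variance was set against its prior, and DESeq2 1.42.0 gave dispersion outliers. Unique sequence is the share of 31-base words of a gene's transcripts found in no other gene. Members are named, with all libraries where they were detected, except a few genes that are not reported here, and the 3 highest by CPM and all varying genes of each signalling list, and up to the 2 highest of a marker list. The members and lists were chosen with earlier results of these data known. Alternatives were other scalings, detection limits, filters and tests, and each library left out.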

Additional observations from a re-analysis of the deposited data

Results flagged for a closer look

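In a check of 69 sets of 4 library values, 5 had 1 library far from the other 3. Chance alone marks about 1 set in 20. The share of Gpr34 in the summed level of all numbered Gpr genes was 74.8% in library 1, against 64.7% to 66.2% in the others. Gpr19 was at 2.77 CPM in library 1, against 1.86 to 1.94 CPM. Gnas was at 596 CPM in library 1, where the others had 761 to 794 CPM. In library 3, Gnai2 was at 906 CPM, against 703 to 737 CPM, and Abhd12 at 821 CPM, against 691 to 699 CPM.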

How the results depend on the processing

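Depth, at 23036202 to 24487418 counts a library, leaves members below 1 CPM with few counts, so their order and spread are loosely measured. The count of detected members was 26 to 30 with each library left out (30 without library 3), 29 at 0.5 CPM and 18 at 5 CPM. No member passed the test of spread under any of the 9 alternatives. The quasi-likelihood test and the DESeq2 outliers called only 0% and 0.0354% of all genes, so these alternatives say little about the members. All 156 recomputed levels of detected members stayed within 1 SD. Apart from rescaling, leaving out 1 library of 4 cannot move a mean that far, so this outcome was nearly fixed in advance. The share of Gpr34 was 54.0% without division by length, 77.3% without the inner-membrane group and 63.1% per kilobase of the longest coding transcript, an alternative chosen after seeing the data, and 65.5% to 68.8% with each library left out. The count of members lowest in library 3 was 6 (23.1%) without library 1, 9 (34.6%) without library 2 and 10 (38.5%) without library 4. Over protein-coding genes detected in the libraries left, the shares were 34.3%, 33.9% and 32.5%. It was 4 members with DESeq2 size factors, 8 with total counts, and 10 of 31 among members with at least 10 counts in every library. No share over all genes stands beside these last counts. The 6 varying genes of the signalling lists numbered 0 to 5 with each library left out, 0 by the quasi-likelihood test and 0 by DESeq2. No paired analysis was possible because there is only 1 group. The cause of these shifts was not tested.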
